A study of Mus musculus with 9 samples.

Results

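The 10 genes described here set how much iron the liver senses, stores and lets out: Hfe2, Hfe, Bmp6, Tfr2, Tmprss6, Hamp, Slc40a1, Tfrc, Fth1 and Ftl1. They were chosen by symbol, and all 10 were found among the 30519 transcripts of the deposited table, which holds 1 transcript per gene. RNA-seq of poly(A) RNA compared livers of 4 miR-122 knockout (KO) mice with livers of 5 littermates that carry floxed alleles (wild type, WT), all 6 weeks old. Each library came from 1 mouse and from liver powder that was not crosslinked. By sex, there were 1 female and 3 male KO mice against 3 female and 2 male WT mice. The sources used here do not say what drove the deletion, miR-122 itself was not analysed here, and so the genotype rests on the labels. No other treatment is named for either group.

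Hepatocytes secrete hepcidin, the peptide product of Hamp, which binds the iron exporter ferroportin (Slc40a1) and has it degraded, so that less iron enters the blood. Hamp transcription is driven by bone morphogenetic protein (BMP) signalling through SMAD proteins, for which hemojuvelin (the product of Hfe2, also called Hjv) is a co-receptor, and it is also raised by interleukin 6 through STAT3. Inside the cell, iron regulatory proteins bind iron-responsive elements, short hairpins in the untranslated regions of ferritin, ferroportin and transferrin receptor mRNAs, and thereby act on translation or mRNA stability. MicroRNAs pair through a seed near their 5′ end with target mRNAs, mostly in the 3′ UTR, and lower their level. Hfe2 and Hfe have been described as targets of miR-122, the most abundant microRNA of hepatocytes.

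Values are normalised abundances per transcript length as deposited, so levels can be set side by side between the listed transcripts. A value given under a gene's name is that of its 1 listed transcript, and other transcripts of the gene are not covered. The libraries summed to 0.711 to 0.869 M (mega, in those units) in KO and 0.873 to 1.167 M in WT. No pair of libraries was identical. The column name of WT replicate 3 gives male where its label gives female, and its Y-linked values were near 0 (Ddx3y 0.042, against at least 13.166 in the libraries labelled male). It was kept as female. In bulk liver, fewer cells of a type and less RNA per cell cannot be told apart.

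Of the 10 genes, 2 were higher (Hfe2 and Bmp6) and 1 was lower (Tfr2) in KO at an adjusted p under 0.05 in limma, adjusted over the 10950 transcripts with a mean of at least 1. All 10 genes passed that filter. Over all transcripts tested, 35.9% were called, 21.4% higher and 14.5% lower, so a count of 3 of 10 lies near the background. The same 3 genes had groups that did not overlap, which held for 31.1% of all transcripts tested. The submitters' own q-values, in the authors' deposited table, also called 3 of the 10, 2 higher and 1 lower, against 25.2% of the transcripts with a q. The median log2 fold change, KO minus WT of (value + 1), was 0.20 for the 10 genes and 0.03 for all transcripts tested.

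**Figure D1:**
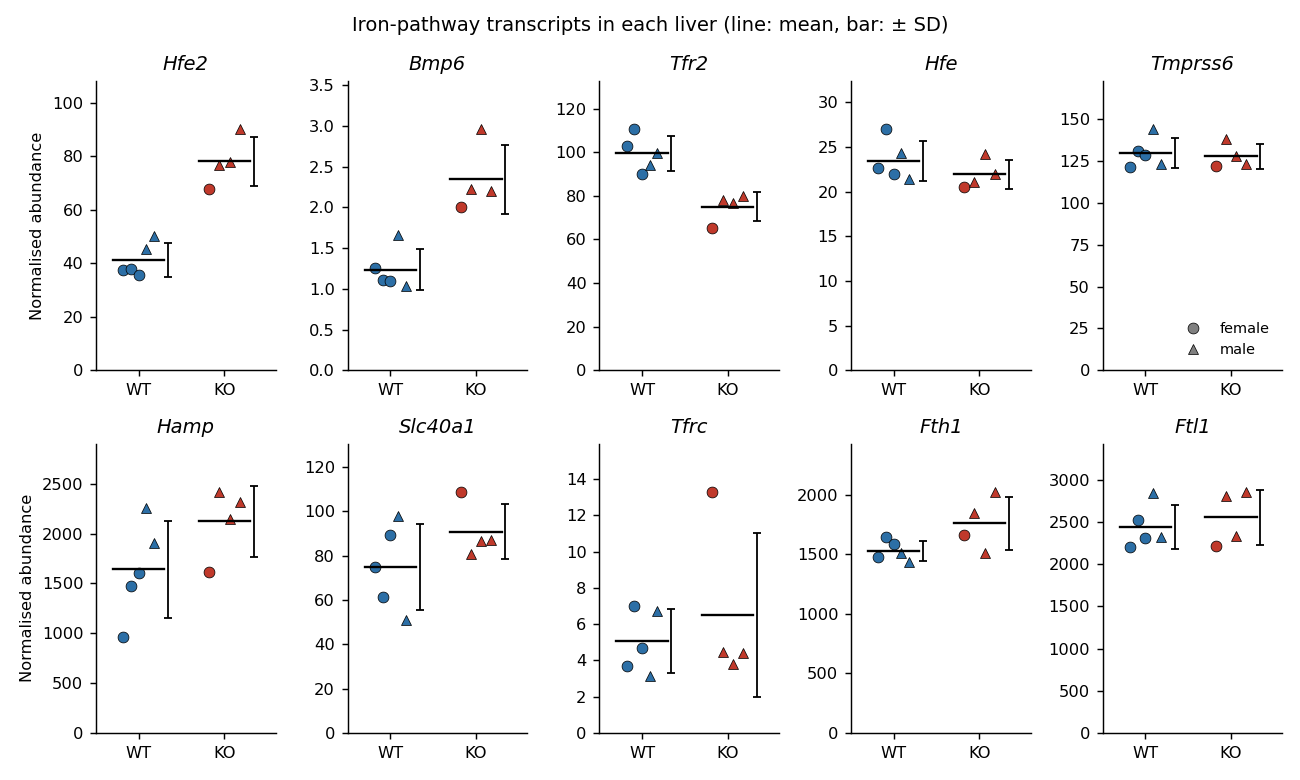
Normalised abundance (y axis, each panel from 0) of the 10 transcripts in each WT (blue) and KO (red) liver, with circles for females, triangles for males, a line at the mean and a bar of ± 1 SD. Hfe2 and Bmp6 are higher in every KO liver than in any WT liver, Tfr2 is lower in every KO liver, and the other panels overlap.

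Hfe2, the BMP co-receptor, was higher in every KO liver than in any WT liver. Its abundance was 68.0, 76.9, 77.9 and 90.2 in KO replicates 1 to 4, and 37.5, 37.9, 35.5, 45.4 and 50.2 in WT replicates 1 to 5. The lowest KO liver was the female, and the highest WT liver a male. The mean was 1.89-fold higher in KO (78.2 ± 9.13, SD, n = 4, against 41.3 ± 6.26, n = 5), with a log2 fold change of 0.91 (95% interval 0.64 to 1.18, limma adjusted p = 0.000437). In the authors' deposited table the same transcript had a log2 difference of 0.88, after conversion from natural log and with KO minus WT as the sign, and a q of 1.42e-08. Males were higher than females in WT, with females at 35.5 to 37.9 and males at 45.4 to 50.2. The 1 KO female, at 68.0, lay below the 3 KO males, at 76.9 to 90.2, and there sex and liver cannot be told apart. Within males alone the difference was 0.76 (limma adjusted p = 0.0116), where 21.2% of transcripts were called and 13.5% were called higher. With sex as a covariate it was 0.80 (limma adjusted p = 0.000193).

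The listed Hfe2 transcript lies on the plus strand of chromosome 3, from 96525172 to 96529210 (mm10), and has a 3′ UTR of 520 bases. It was the only 1 of the 10 transcripts with a match to the miR-122 seed in its 3′ UTR. The match searched was CACTCC on the mRNA strand, which pairs with bases 2 to 7 of miR-122, as a 6mer, or longer with A on either side (7mer-A1 with A after it, 7mer-m8 with A before it). Both windows are shown because they are where miR-122 could pair with a called transcript described as its target, with the matched bases in capitals. They lie at 175 and 268 bases into the 3′ UTR.
Hfe2, 7mer-A1, chr3:96528853-96528882, plus strand: gccagggttttgCACTCCAgaccttggtgt
Hfe2, 6mer, chr3:96528946-96528975, plus strand: tacacctgatacCACTCCtacaagcctaga
Among 18406 mouse 3′ UTRs of the table, 23.5% held CACTCC, 12.7% held a 7mer or longer and 8.68% held CACTCCA, so such a match is common. Hfe, also described as a target, had no match in its 3′ UTR of 2352 bases. Matches within the coding region were present in 3 of the 10 transcripts, a 6mer in Hfe2 and a 7mer-m8 each in Bmp6 and Tfrc, and a 6mer lay in the 5′ UTR of Bmp6 and of Slc40a1. A match is a description of these letters and not a measured binding site.

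**Figure D2:**
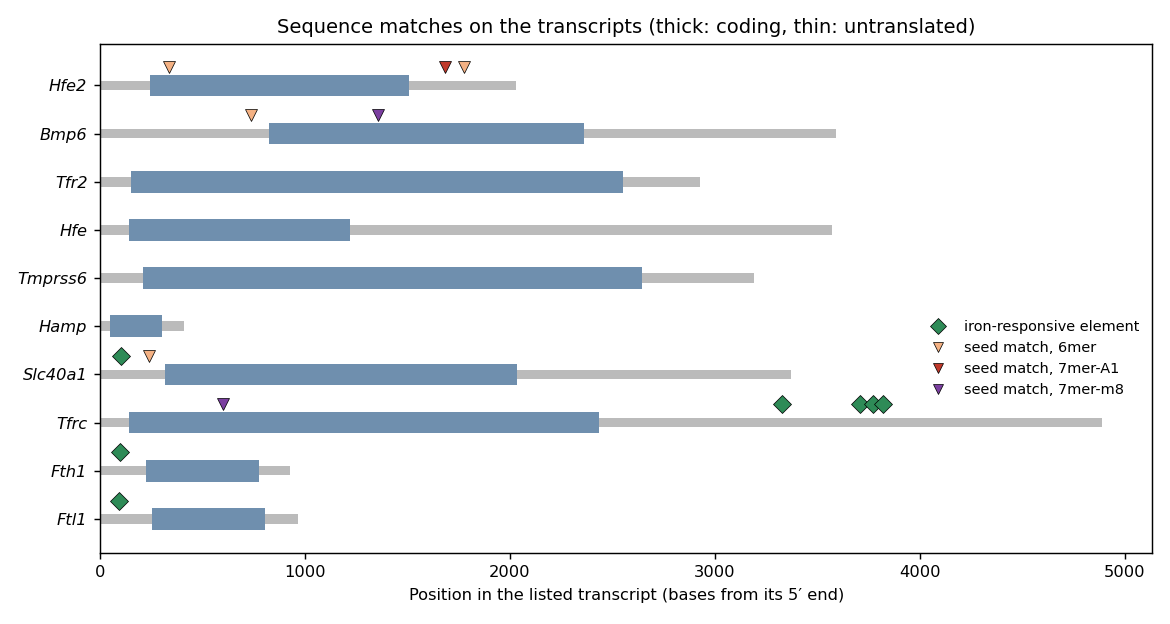
Maps of the 10 listed transcripts in bases from the 5′ end (x axis), with coding regions as thick bars, untranslated regions as thin bars, miR-122 seed matches as triangles and iron-responsive elements as diamonds. Seed matches in a 3′ UTR are seen in Hfe2, and iron-responsive elements in Slc40a1, Tfrc, Fth1 and Ftl1.

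Bmp6 encodes the ligand that liver endothelial cells release when iron is high, and which hemojuvelin helps to bind. It was the least abundant of the 10 transcripts, with 2.00, 2.22, 2.96 and 2.20 in KO replicates 1 to 4 and 1.25, 1.11, 1.10, 1.66 and 1.04 in WT replicates 1 to 5. The lowest KO value lay above the highest WT value. The mean was 1.90-fold higher in KO (2.35 ± 0.421, SD, n = 4, against 1.23 ± 0.251, n = 5), with a log2 fold change of 0.58 on the (value + 1) scale, which understates the change of so low a transcript (95% interval 0.31 to 0.85, limma adjusted p = 0.00455). In males alone the difference was 0.56 and missed the threshold (limma adjusted p = 0.0891). Of 13 markers of sinusoidal endothelium, the cells known for Bmp6, 2 were called higher and 1 lower (21.4% and 14.5% of all transcripts). Their summed level was 109 to 134 in KO and 95.5 to 144 in WT livers. Their median log2 fold change was -0.08, and 0.30 at equal totals, where 2 were higher and 0 lower by limma (45.4% and 2.72% of all transcripts). Their part in the Bmp6 values was not tested. Bmp2, another endothelial ligand of this pathway, lay at 4.65 to 6.26 in KO and 4.66 to 6.65 in WT livers (log2 fold change -0.04, limma adjusted p = 0.797).

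Tfr2, a receptor through which hepatocytes sense iron-loaded transferrin, was lower in KO. Its abundance was 65.1, 78.0, 76.9 and 79.7 in KO replicates 1 to 4 and 103, 111, 90.2, 94.1 and 99.4 in WT replicates 1 to 5. No KO liver reached the lowest WT liver. The means were 74.9 ± 6.67 (SD, n = 4) and 99.4 ± 7.92 (n = 5), so that WT was 1.33-fold higher, with a log2 fold change of -0.40 (95% interval -0.60 to -0.21, limma adjusted p = 0.00625). In males alone it was -0.30 and missed the threshold (limma adjusted p = 0.0778).

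Hfe, the partner of Tfr2 in iron sensing and the gene mutated in the common form of hereditary haemochromatosis, did not pass the test. Its abundance was 20.5, 21.1, 24.2 and 22.0 in KO replicates 1 to 4 and 22.7, 27.0, 22.0, 24.3 and 21.4 in WT replicates 1 to 5, so the groups overlapped. The log2 fold change was -0.09 with a 95% interval of -0.28 to 0.10 (limma adjusted p = 0.446). Tmprss6 encodes matriptase-2, a membrane protease that cleaves hemojuvelin and so restrains hepcidin. It lay at 121.9, 138.5, 128.0 and 123.5 in KO replicates 1 to 4 and at 121.3, 131.3, 128.6, 144.1 and 123.3 in WT replicates 1 to 5, with a log2 fold change of -0.02 (95% interval -0.19 to 0.15, limma adjusted p = 0.872). Of the 10 genes this was the smallest difference.

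Ratios within a liver do not depend on how libraries were scaled. They were chosen after the values were seen and are given as a description. Tfr2 stood at 0.883 to 1.01 times Hfe2 in the 4 KO livers and at 1.98 to 2.91 times Hfe2 in the 5 WT livers, so the pair was close to equal in KO and uneven in WT. That this ratio does not overlap follows from the 2 genes themselves, whose groups lay apart in opposite directions. Hfe2 stood at 0.556 to 0.730 times its protease Tmprss6 in KO and 0.276 to 0.407 times in WT livers. Tfr2 stood at 0.534 to 0.645 times Tmprss6 in KO and 0.653 to 0.849 times in WT livers, with a narrow gap between the groups.

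**Figure D3:**
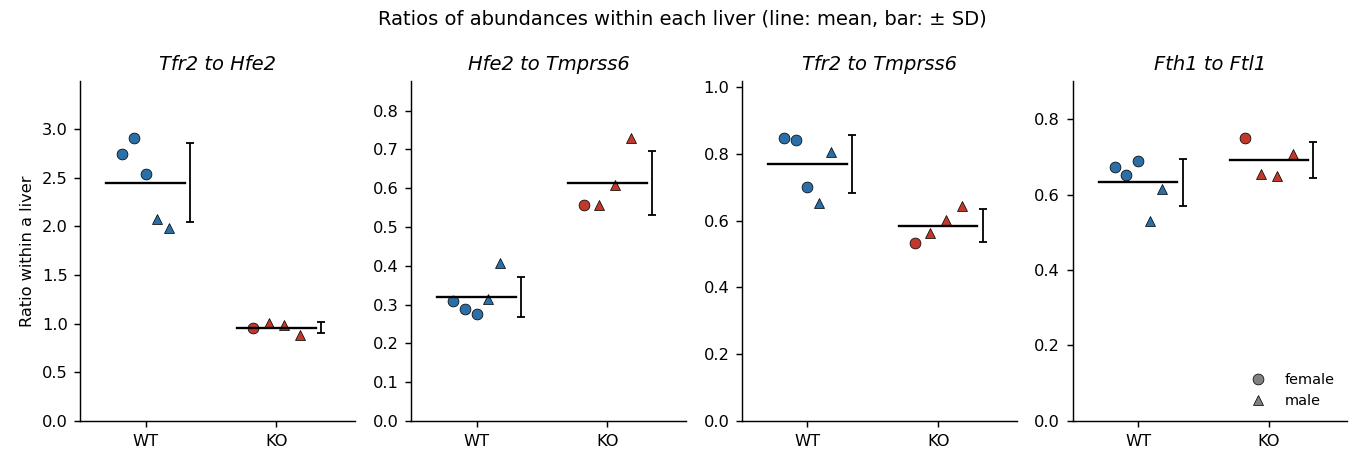
Ratios of normalised abundances within each WT (blue) and KO (red) liver, on axes from 0, with circles for females, triangles for males, a line at the mean and a bar of ± 1 SD. The first 3 panels show groups that do not overlap, with Tfr2 to Hfe2 at 0.883 to 1.01 in KO and 1.98 to 2.91 in WT, and Fth1 to Ftl1 overlaps.

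Hamp, the hepcidin transcript, overlapped between the groups. Its abundance was 1613, 2419, 2145 and 2315 in KO replicates 1 to 4 and 965, 1477, 1602, 2257 and 1904 in WT replicates 1 to 5. The 2 highest WT values were those of the males, and the KO female, at 1613, was the lowest KO liver. The means were 2123 ± 358 (SD, n = 4) and 1641 ± 483 (n = 5), with a log2 fold change of 0.41 (95% interval -0.11 to 0.93, limma adjusted p = 0.203). An interval of that width includes no change and an increase of the size seen for Hfe2. Within males KO livers lay at 2145 to 2419 and WT livers at 1904 to 2257, and the difference was 0.14 (limma adjusted p = 0.535). It was 0.20 with sex as a covariate (limma adjusted p = 0.381).

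The mouse carries a second hepcidin gene, Hamp2, whose listed transcript is identical to that of Hamp at 92.4% of 420 aligned positions, so the estimates of the pair can share reads and both are uncertain. Hamp2 lay at 402, 1030.4, 308 and 629.9 in KO replicates 1 to 4 and at 672, 1723, 933, 323 and 89.9 in WT replicates 1 to 5. WT females spanned 672 to 1723 and WT males 89.9 to 323. The genotype difference was 0.09 (limma adjusted p = 0.941), and the difference between sexes in that effect, 3.12 on the log2 scale, missed the threshold (95% interval 0.63 to 5.61, limma adjusted p = 0.370).

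The promoters of this pair are shown because they carry the letters through which BMP and interleukin 6 signals are known to reach Hamp. Sequences are from RefSeq (GRCm38.p6), which had a promoter window for 7 of the 10 genes. The motifs searched were GGCGCC, a core of BMP-responsive elements, and TTCNNNGAA, the STAT motif, where N is any base. Both read the same on either strand as written, and they do not overlap here. Capitals mark a match.
Hamp, chr7:30944099-30944158, minus strand, -129 to -70 from the start: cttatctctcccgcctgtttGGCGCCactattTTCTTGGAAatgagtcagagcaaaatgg
Hamp2, chr7:30924248-30924307, minus strand, -126 to -67 from the start: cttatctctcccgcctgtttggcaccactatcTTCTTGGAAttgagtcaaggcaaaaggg
These stretches of 60 bases differ at 6 positions, counted from 1 at the 5′ end with the Hamp base first: G24A, T32C, A42T, G50A, A51G and T58G. The first of them lies within GGCGCC and removes that match from Hamp2. The search covered whole promoter windows, which are longer than the stretches shown (for Hamp, chr7:30943980-30944279). Of 32851 such windows, all of 1 length, 11.9% held GGCGCC and 8.3% held TTCNNNGAA. Among the 10 genes GGCGCC was found for Hamp and Tfrc, and TTCNNNGAA for Hamp.

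Slc40a1 encodes ferroportin, the iron exporter that hepcidin acts on. Its abundance was 109, 80.8, 86.8 and 87.0 in KO replicates 1 to 4 and 75.0, 61.3, 89.2, 98.1 and 50.9 in WT replicates 1 to 5. WT livers covered a wider range than KO livers, and the groups overlapped (log2 fold change 0.31, 95% interval -0.11 to 0.73, limma adjusted p = 0.235). Kupffer cells, the liver's macrophages, also express ferroportin as they recycle iron from red cells. Of 13 Kupffer cell and macrophage markers, 12 were called higher in KO and 0 lower (21.4% and 14.5% of all transcripts). Their summed level was 661 to 771 in KO and 329 to 429.9 in WT livers. Their part in the Slc40a1 values was not tested.

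Tfrc encodes transferrin receptor 1, which takes up iron-loaded transferrin. It lay at 13.3, 4.47, 3.83 and 4.43 in KO replicates 1 to 4 and at 3.70, 7.02, 4.68, 3.15 and 6.74 in WT replicates 1 to 5. The KO female thus stood above all other livers, while the 3 KO males fell inside the WT range. The log2 fold change was 0.20 (95% interval -0.55 to 0.95, limma adjusted p = 0.672), and it was -0.16 without KO replicate 1 (limma adjusted p = 0.624). Immature red cells carry much of this receptor. Of the 14 erythroid markers listed, 13 were in the table and 6 were tested, of which 3 were called higher, against 21.4% of all transcripts. All 3 are globins, whose near-identical copies can share reads. The summed erythroid level was 1615 to 3025 in KO and 1141 to 1857 in WT livers. In males alone 0 erythroid markers were called higher and 1, Alas2, was called lower, of 5 tested by limma (3 higher and 1 lower at an unadjusted p under 0.05). Alas2, the haem synthesis enzyme of erythroid cells, lay at 33.0 to 59.8 in KO and 21.7 to 85.8 in WT livers, and 7 of the 13 markers, Gata1 among them, had means under 0.5. The part of these cells in the Tfrc values was not tested.

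Fth1 and Ftl1 encode the heavy and light chains of ferritin, the iron store. Fth1 lay at 1666, 1845, 1513 and 2026 in KO replicates 1 to 4 and at 1483, 1644, 1589.5, 1513 and 1433 in WT replicates 1 to 5 (log2 fold change 0.19, 95% interval -0.04 to 0.43, limma adjusted p = 0.174). Ftl1 lay at 2217, 2814, 2331 and 2858 in KO replicates 1 to 4 and at 2201, 2522, 2310.1, 2851 and 2326 in WT replicates 1 to 5 (log2 fold change 0.06, 95% interval -0.21 to 0.33, limma adjusted p = 0.719). Both chains overlapped between the groups. By name, the annotation holds 5 pseudogenes of the ferritin heavy chain family and 2 of the light chain family, with which reads could be shared. The ratio of heavy to light chain transcript was 0.691 ± 0.0482 (SD, n = 4) in KO and 0.632 ± 0.0628 (n = 5) in WT livers, a log2 difference of 0.13 (exact two-sided permutation p = 0.175, adjusted 0.270 over 2 ratios). The ratio of Tfr2 to Tfrc was 15.1 ± 6.90 in KO and 21.5 ± 6.98 in WT livers, a log2 difference of -0.61 (exact two-sided permutation p = 0.270, adjusted 0.270). For both ratios the means and SDs are of plain ratios, while the log2 difference and the test used (value + 1) of each gene. With 4 and 5 livers there are 126 splits, and the smallest p this test can give is 0.0159.

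These storage and transport transcripts are the ones that carry iron-responsive elements. The search was for a bulged C, 5 paired bases, the loop CAGTGN with any last base but G, and the other side of the stem (G with T allowed to pair). It found an element in 4 of the 10 transcripts: 1 each in the 5′ UTR of Fth1, Ftl1 and Slc40a1, and 4 in the 3′ UTR of Tfrc. Over all transcripts searched, 15 of 18212 5′ UTRs (0.0824%) and 70 of the 3′ UTRs (0.38%) held such an element. The windows below are shown because elements in a 5′ UTR bear on translation and those in a 3′ UTR on mRNA stability. Capitals mark the bulged C and the loop, and the flanks of the loop pair with each other.
Fth1, 5′ UTR, chr19:9982732-9982761, plus strand: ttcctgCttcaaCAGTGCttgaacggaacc
Ftl1, 5′ UTR, chr7:45459778-45459807, minus strand: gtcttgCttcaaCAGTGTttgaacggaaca
Slc40a1, 5′ UTR, chr1:45925464-45925493, minus strand: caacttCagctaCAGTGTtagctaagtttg
Tfrc, 3′ UTR, 895 bases in, chr16:32631219-32631248, plus strand: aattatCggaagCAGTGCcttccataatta
Tfrc, 3′ UTR, 1274 bases in, chr16:32631598-32631627, plus strand: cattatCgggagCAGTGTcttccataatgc
Tfrc, 3′ UTR, 1339 bases in, chr16:32631663-32631692, plus strand: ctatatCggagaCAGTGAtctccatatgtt
Tfrc, 3′ UTR, 1386 bases in, chr16:32631710-32631739, plus strand: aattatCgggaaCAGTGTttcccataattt
None of these 4 transcripts was called on the deposited scale, and protein levels were not measured here. The transcripts of the iron regulatory proteins themselves, Aco1 and Ireb2, were not called either: Aco1 lay at 57.8 to 63.5 in KO and 51.8 to 57.4 in WT livers with no overlap (log2 fold change 0.15, limma adjusted p = 0.0931), and Ireb2 at 26.1 to 27.9 and 25.4 to 35.0 (log2 fold change -0.12, limma adjusted p = 0.361).

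Ordered by their mean level in WT livers, from high to low, the 10 transcripts were Ftl1 (2442), Hamp (1641), Fth1 (1532), Tmprss6 (129.7), Tfr2 (99.4), Slc40a1 (74.9), Hfe2 (41.3), Hfe (23.5), Tfrc (5.06) and Bmp6 (1.23). In WT the livers' ranges overlapped between neighbours for Ftl1 and Hamp, Hamp and Fth1, and Tfr2 and Slc40a1. In KO Slc40a1 (90.9) and Hfe2 (78.2) both had means above Tfr2 (74.9), and the range of Hfe2 overlapped those of the other two.

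The call for Tfr2, and for 5 other genes, depended on how libraries were scaled. The deposited values sum to less in KO, and scaling each library to the same total moved the median log2 fold change of all transcripts from 0.03 to 0.37. On that scale 48.1% of transcripts were called, 45.4% higher and 2.72% lower, and 7 of the 10 genes were called, all of them higher: Hfe2, Bmp6, Hamp, Tmprss6, Slc40a1, Fth1 and Ftl1. Hamp reached 0.81 (limma adjusted p = 0.00540), while Tfr2 stood at -0.01 (limma adjusted p = 0.957). Relative to the median of all transcripts the values were closer: Hfe2 0.88 on the deposited scale and 0.94 at equal totals, Hamp 0.38 and 0.44, Tmprss6 -0.05 and 0.01, and Tfr2 -0.43 and -0.38. Size factors computed from the table by medians of ratios lay between 0.982 and 1.023 and kept the 3 calls.

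**Figure D4:**
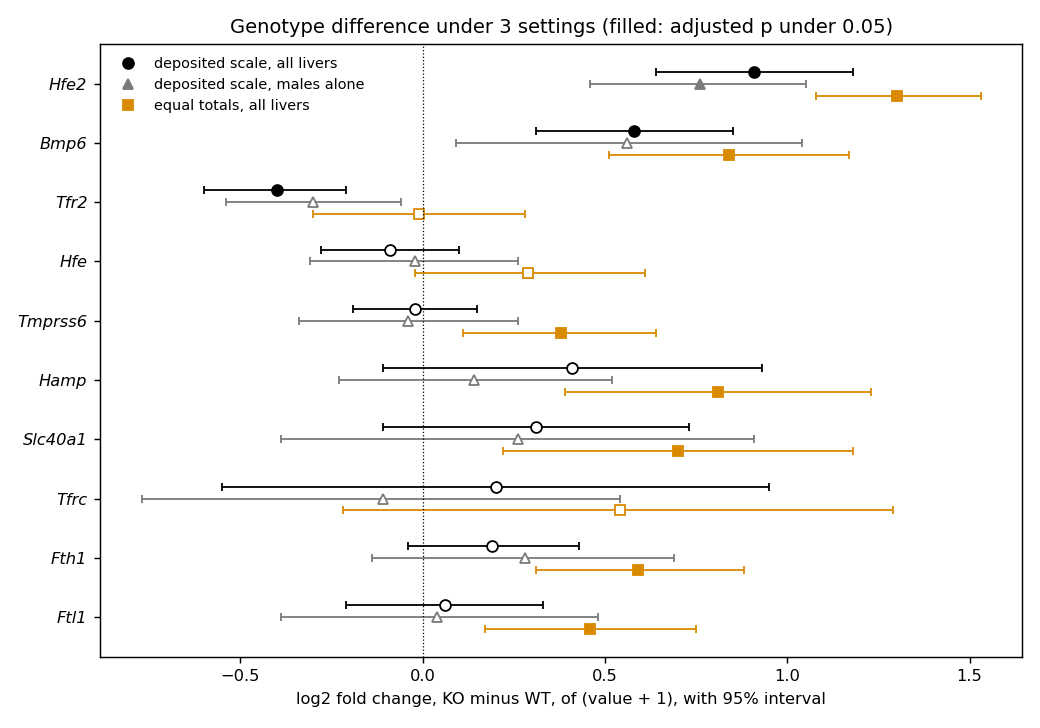
Log2 fold change (KO minus WT, x axis, with its 95% interval) of the 10 genes on the deposited scale with all livers (black), on that scale in males alone (grey) and with all libraries scaled to the same total (orange); filled symbols have an adjusted p under 0.05. Hfe2 is filled under all 3 settings, Tfr2 lies at -0.40, -0.30 and -0.01, and the orange points lie to the right of the black ones.

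The counts in the lists that follow stand beside the shares of all transcripts tested. Those were 21.4% higher and 14.5% lower on the deposited scale, and 45.4% and 2.72% at equal totals. Among 27 tested genes of hepcidin signalling other than the 10, 5 were higher and 3 lower. Their median log2 fold change was 0.05 (0.39 at equal totals, where 12 were higher and 1 lower). Atoh8, a BMP-induced transcription factor that acts on Hamp, was 2.13-fold higher, at 8.59 to 11.3 in KO and 3.88 to 5.91 in WT livers (log2 fold change 0.96, limma adjusted p = 0.000227). Spint2, an inhibitor of matriptase-2, was 2.01-fold higher, at 74.6 to 94.2 and 33.3 to 49.9 (log2 fold change 1.00, limma adjusted p = 0.000291). The remaining 3 that rose are named after their values were seen: Bmpr1a, a BMP receptor (0.53), Neo1, which binds hemojuvelin (0.47), and Id1, a BMP target (0.71). Id1 passed narrowly and its groups overlapped (limma adjusted p = 0.0495), and the call was lost in 7 of the 9 fits that left out 1 liver.

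The other BMP target genes of the list did not pass the test: Smad7 lay at 1.80 to 3.04 in KO and 1.13 to 2.26 in WT livers (log2 fold change 0.41, limma adjusted p = 0.0703), Id2 at 119 to 218 and 106 to 239 (0.01, adjusted p = 0.990), and Id3 at 26.9 to 37.9 and 14.3 to 53.3 (0.46, adjusted p = 0.302). Smad6 (-0.10, adjusted p = 0.533) and Id4 (-0.09, adjusted p = 0.626) were not called either. On the interleukin 6 side, Il6ra, which encodes the receptor's binding chain, was lower in KO, at 5.37, 4.34, 2.61 and 2.57 in KO replicates 1 to 4 and 9.14 to 14.4 in WT livers. WT was 3.24-fold higher by mean (log2 fold change -1.50, limma adjusted p = 0.000353). The other genes of this arm were not called: Il6st stood at -0.01 (adjusted p = 0.977), Stat3 at -0.22 (0.396) and Socs3 at 0.38 (0.654). In WT replicate 5 Socs3 stood above all other livers, while the other WT livers lay at 1.28 to 3.83, and Stat3 was 41.5, the highest of the 9 livers. Acvr2a, an activin and BMP receptor, was lower as well, at 5.90 to 7.30 in KO and 7.54 to 9.32 in WT livers (log2 fold change -0.31, limma adjusted p = 0.0185), but stood at 0.04 at equal totals (adjusted p = 0.824), and the call was lost without KO replicate 2 (0.0533) and without KO replicate 4 (0.0527). The third that fell, named after its value was seen, was Fgl1, a liver-secreted protein (-0.93, adjusted p = 0.0188); its call was lost without KO replicate 2 (adjusted p = 0.0536), without KO replicate 3 (0.0520), with the replicate block (0.0603) and at equal totals (-0.53, 0.128).

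Of 19 tested genes of iron and haem transport, 4 were higher and 2 lower (median log2 fold change -0.01), and at equal totals 7 were higher and 0 lower by limma (median 0.35). Lcn2, which binds iron-carrying siderophores, had the largest difference, at 448, 556, 559 and 753 in KO replicates 1 to 4 and 5.10 to 61.8 in WT livers, 21.3-fold by mean (log2 fold change 4.76, limma adjusted p = 0.000249). Steap3, a ferrireductase of endosomes, was 1.63-fold higher (9.23 to 10.9 in KO, 5.52 to 6.93 in WT, log2 fold change 0.62, limma adjusted p = 0.000541). The other 2, named after their values were seen, were Slc48a1, a haem transporter (0.36), and Trf, which encodes transferrin (0.57); Trf passed narrowly (adjusted p = 0.0398) and lost its call in 7 of the 9 fits that left out 1 liver, with 5199.7 to 9529.7 in KO and 3876 to 5618 in WT livers. Both that fell import metal ions: Slc39a8 lay at 5.94 to 8.20 in KO and 9.43 to 17.1 in WT livers (log2 fold change -0.62, adjusted p = 0.0145), and Slc39a14, which takes up iron not bound to transferrin, at 26.5 to 30.8 and 32.4 to 58.2 (-0.50, adjusted p = 0.0322). Neither was called at equal totals, where Slc39a8 stood at -0.27 and Slc39a14 at -0.11, and 5 of the 9 fits that left out 1 liver lost the call of Slc39a14.

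In iron storage and the iron regulatory protein system, 1 of 9 tested genes was called, and it was lower (median log2 fold change -0.12). At equal totals 3 were higher and 0 lower by limma (median 0.27). The gene called on the deposited scale was Ncoa4, the receptor that delivers ferritin to autophagy. It lay at 48.2 to 52.9 in KO and 71.1 to 86.6 in WT livers, so that WT was 1.54-fold higher (log2 fold change -0.61, limma adjusted p = 0.000247). At equal totals Ncoa4 stood at -0.22 and was not called (adjusted p = 0.153).

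Of 12 genes of haem synthesis and breakdown, 2 were higher and 3 lower (median log2 fold change -0.14), and at equal totals 6 were higher and 1 lower (median 0.24). Alad, which joins aminolevulinate in haem synthesis, lay at 182, 191, 117 and 192 in KO replicates 1 to 4 and at 79.2 to 109 in WT livers (log2 fold change 0.87, limma adjusted p = 0.00236). Hmox1, which opens the haem ring, was 2.08-fold higher by mean, but the KO female (22.9) lay below the highest WT liver (25.0) (log2 fold change 1.05, limma adjusted p = 0.0127), and in males alone the adjusted p was 0.0513. Blvrb, a biliverdin reductase, was lower, at 21.9 to 27.3 in KO and 42.1 to 49.0 in WT livers (-0.78, adjusted p = 0.000134). Fech, which inserts iron into haem, was lower at 50.0 to 54.6 against 66.2 to 79.9 (-0.45, adjusted p = 0.00132), and Cpox, of an earlier step and named after its value was seen, by -0.48. At equal totals Fech stood at -0.06 and Cpox at -0.08, neither called.

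Of 21 genes of mitochondrial iron and iron-sulphur cluster assembly, 9 were lower and 2 higher, with a median log2 fold change of -0.24. Hspa9, the chaperone that hands on new clusters, lay at 138 to 165 in KO and 231 to 266 in WT livers (log2 fold change -0.70, limma adjusted p = 0.000175). Isca2, an assembly factor, lay at 21.1 to 23.9 and 31.5 to 36.9 (-0.61, adjusted p = 0.000224). Hscb, the co-chaperone of Hspa9, went the other way, at 9.57 to 11.0 in KO and 3.68 to 6.48 in WT livers (0.82, adjusted p = 0.00122), as did Slc25a28, a mitochondrial iron importer, at 10.8 to 13.3 and 7.95 to 10.2 (0.34, adjusted p = 0.0176). The Slc25a28 call was lost without KO replicate 2 (adjusted p = 0.0520) and without KO replicate 4 (0.0513). The sign of the list's median depended on scale: at equal totals 2 were lower and 7 higher, and the median was 0.13. The median of all transcripts was 0.03 on the deposited scale and 0.37 at equal totals. The list's median lay below it on both scales. At equal totals Isca2 stood at -0.23 without a call (adjusted p = 0.0983). In males alone 7 were lower and 1 higher. Over the 5 lists, 13 of 88 tested genes were higher and 18 lower on the deposited scale, and 35 were higher and 4 lower at equal totals. Of all transcripts, 21.4% were higher and 14.5% lower on the deposited scale, and 45.4% and 2.72% at equal totals. In males alone 8 were higher and 11 lower, where 13.5% of all transcripts were called higher and 21.2% in either direction. Among the genes named above, Acvr2a, Neo1, Id1, Fgl1, Trf, Slc48a1, Slc39a8, Slc39a14, Hmox1, Cpox and Slc25a28 missed the threshold there, with limma adjusted p from 0.0513 (Hmox1) to 0.217 (Trf).

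**Figure D5:**
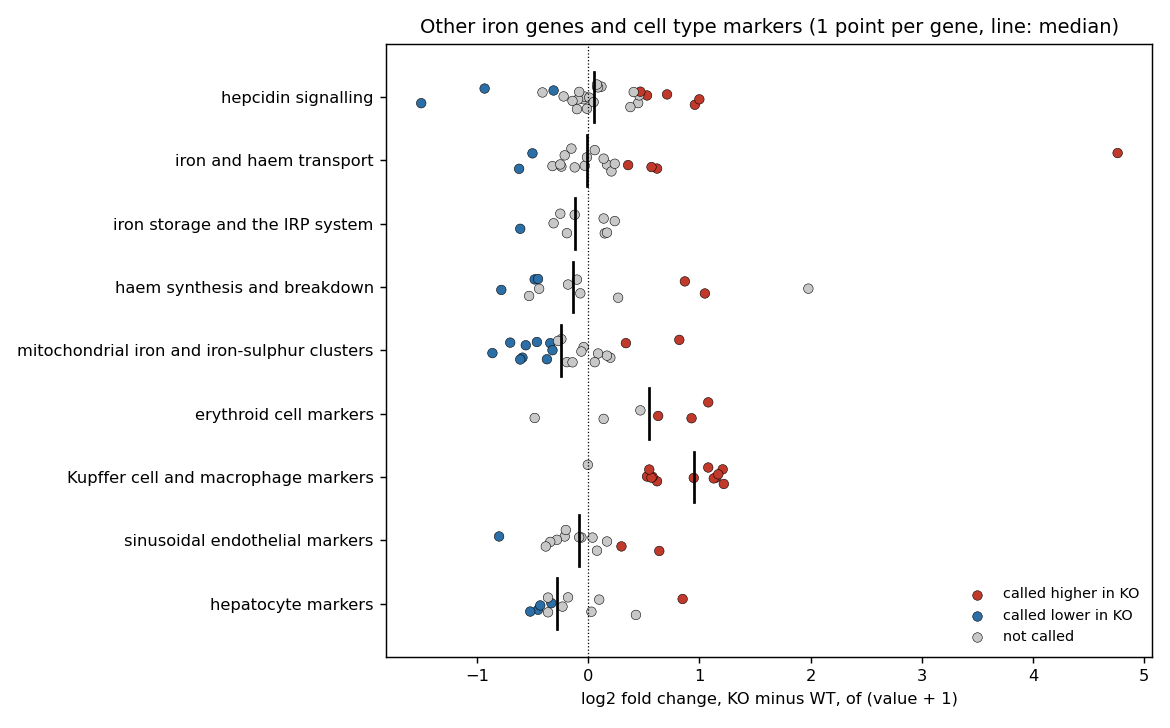
Log2 fold change (KO minus WT, x axis, deposited scale) of each tested gene of the 5 iron lists and the 4 marker lists (y axis), with red for genes called higher, blue for genes called lower, grey for genes not called and a line at the list's median. The Kupffer cell list lies to the right with a median of 0.95, and Lcn2 is the single point near 4.76.

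Markers of cell types moved beside these values, where 21.4% of all transcripts were called higher and 14.5% lower. At equal totals those shares were 45.4% and 2.72%. Lyz2 (193 to 214 in KO, 79.9 to 93.7 in WT livers) and C1qa (74.4 to 89.1 and 31.9 to 39.7), genes of macrophages, led the 12 Kupffer cell and macrophage markers that rose. Among endothelial markers Cdh5 (log2 fold change 0.30) and Stab1 (0.64) rose and Lyve1 (-0.80) fell, and in males alone 0 of the 13 were called by limma (1 higher and 1 lower at an unadjusted p under 0.05). At equal totals Lyve1 stood at -0.56 and was not called (adjusted p = 0.0651). The Stab1 call was lost in 5 of the 9 fits that left out 1 liver. Of 12 hepatocyte markers, 1 was higher, the amino acid enzyme Tat (0.85, called in 3 of the 9 such fits), and 4 were lower, the clotting genes Serpinc1 (-0.43) and F2 (-0.33), with the smallest adjusted p of the 4, and the apolipoproteins Apoa2 (-0.52) and Apoa1 (-0.45). At equal totals 3 hepatocyte markers were higher and 0 lower by limma, and the summed hepatocyte level was 69681 to 87405 in KO and 64045 to 133802 in WT livers. Hepatocyte transcripts were thus abundant in every liver. The part of cell composition in the values of the 10 genes was not tested.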

How the data were processed

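Poly(A) RNA-seq of 9 mouse livers was used, from 1 table deposited for the whole series. Per the submitters' processing notes, the tools were kallisto and sleuth and the build mm10, with no version stated. The deposited per-library values are a normalised signal, treated as abundances per transcript length: they are not counts, so no count test was run. Over 9122 transcripts, a check on length gave an r of 0.972. The p-values and q-values were deposited by the authors, and their coefficients are deposited on a natural log scale, WT minus KO, converted to log2 KO minus WT here.

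Samples were grouped by labelled genotype. The main test was limma 3.58.1 in R 4.3.3, with a trend, on log2(value + 1) of transcripts with a mean of at least 1. Genotype was its single term, and p-values had Benjamini-Hochberg adjustment at 0.05 over 10950 transcripts; limma's interaction and sex fits were alternatives. Single ratios had an exact two-sided permutation test, on the log2 ratio of (value + 1). The fit was tested on simulated data. Each mouse is 1 replicate. The depth of each library is not stated with the values, so no counting interval is given.

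The 10 genes and all gene lists were chosen with earlier results of these data known. Named beside the 10 were, per list, up to 2 called genes on each side with the smallest adjusted p, and for Hamp and Hfe2 the 5 transcripts most alike over the livers. Transcript regions and windows came from GENCODE M21 (mm10). Alternatives were other pseudocounts, filters, scalings, covariates, males alone, a replicate block and leaving out each liver.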

Additional observations from a re-analysis of the deposited data

Results flagged for a closer look

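Tfrc, the transferrin receptor 1 transcript, stood apart in 1 KO liver: the female had 13.3, and the 3 KO males had 3.83 to 4.47. The gap between the female and the nearest male was 0.932 of the whole range of the group. Of 22 groups looked at in this way this was the single case. The chance rate was taken as about 1 group in 20, so a single case lies near it. The KO group holds 1 female, so the sex and the liver cannot be told apart.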

How the results depend on the processing

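Across the settings tried, 3 of the 10 genes were called in each fit that left out 1 liver (range 3 to 3), while 1 was called in males alone (3 KO and 2 WT livers) and 7 when libraries were scaled to the same total. Of all transcripts, 35.9% were called with all livers, 21.2% in males alone and 48.1% at equal totals. Bmp6 could not be tested at a mean of at least 5. Genes called in the 5 iron lists numbered 31 with all livers, 19 in males alone and 23 to 34 when 1 liver was left out; in the 4 marker lists they numbered 23, 12 in males alone and 19 to 24. The log2 ratio of Fth1 to Ftl1 ranged from 0.07 to 0.16 and that of Tfr2 to Tfrc from -0.78 to -0.18 when 1 liver was left out. Values that changed sign were, at equal totals, Hfe (0.29), Tmprss6 (0.38), Acvr2a (0.04) and F2 (0.07); in males alone, Tfrc (-0.11); with sex as a covariate, Ftl1 (-0.0025); and with 1 liver left out, Tmprss6 (range -0.06 to 0.02, at 0.0042 without KO replicate 1 and 0.02 without WT replicate 4), Tfrc (-0.16 without KO replicate 1, up to 0.36) and Hamp2 (-0.53 to 0.53, at -0.23 without KO replicate 2, -0.07 without WT replicate 4 and -0.53 without WT replicate 5). None of these but Tmprss6 at equal totals (limma adjusted p = 0.0247) was called, and the cause was not tested.

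Same-numbered livers are not stated to be pairs, though some carry consecutive mouse numbers in the column names. Their deviations had correlations of 0.229, 0.082, -0.184 and 0.113. These few values cannot show whether same-numbered livers share a litter or batch, and that was not tested. With the replicate block 3 of the 10 genes were called, as were 31 genes of the iron lists (13 higher, 18 lower) and 19 of the marker lists, and Hamp2 stood at -0.53. Number 5 occurs only in WT, so with the block WT replicate 5 does not enter the genotype difference. Hfe2 stood at 0.98 both with the block and without that liver. The KO livers 1 to 4 correlated best with WT numbers 1, 1, 5 and 5. Bmp6 had the fewest estimated reads of the 10 genes, 59 by the authors' deposited mean, against 395 for Tfrc, the next lowest. Its abundances were 1.04 to 2.96.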

Other observations

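After each genotype's mean was subtracted, the transcripts most alike to Hamp over the 9 livers were Aspa (Pearson r 0.96), Rab7 (0.95), Taf10 (0.94), Ccm2l (0.93) and Them6 (0.93). Those most alike to Hfe2 were Mup6 (0.99), Prpsap1 (0.97), Slc35e3 (0.95), Mto1 (0.95) and Ces2c (0.95). These are the highest of many transcripts over livers that also differ in sex and library total, and are a description.

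Alas1, the first and rate-limiting enzyme of haem synthesis, is named after its values were seen. It lay at 103, 69.2 and 129 in the 3 KO males and at 12.8 in the KO female, against 3.92 to 25.5 in WT livers. The genotype difference was 1.98 on the log2 scale and missed the threshold (limma adjusted p = 0.0543). In males alone it was 3.25 (limma adjusted p = 0.0189), and without KO replicate 1, the female, 2.69 (0.00644). The difference between the sexes in this effect was 3.76 (95% interval 1.42 to 6.10) and missed the threshold (limma adjusted p = 0.280).

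The ratio of Hamp2 to Hamp was 0.249, 0.426, 0.144 and 0.272 in KO replicates 1 to 4 and 0.696, 1.17, 0.583, 0.143 and 0.0472 in WT replicates 1 to 5. The 3 WT females thus had the 3 highest ratios of the 9 livers. The ratio was chosen after its values were seen and was not tested.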
